A study of Mus musculus with 6 samples.

Results

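Cyclic nucleotide phosphodiesterases, adenylyl cyclase 7 and subunits of protein kinase A were examined in naive CD8 T cells sorted by the brightness of a reporter of T-cell receptor signalling. The genes were 10 named genes, Pde2a, Pde3b, Pde4a, Pde4b, Pde4d, Pde7a, Prkaca, Prkacb, Prkar1a and Adcy7, of which 9 had an entry among the 11162 entries of the deposited table. The level of Pde4a was not analysed here, and only its promoter windows were searched, with those of the other genes. The genes were chosen by name, with the difference between bright and dim cells already known from an earlier pass over these data. Their differences are therefore a description, and no p-value is attached to them.

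The cells came from the spleen of mice with the transgene Tg(Nr4a1-EGFP)GY139Gsat, called Nur77-GFP, whose green fluorescent protein is driven by control sequences of Nr4a1. All samples had been sorted as CD8+ cells with low CD44, high CD62L and high Qa2 that carried OT-I, a transgenic T-cell receptor, so both populations shared the reporter, the receptor and the naive surface phenotype. They differed in reporter brightness, which divided them into Nur77-GFP-hi and Nur77-GFP-lo cells (GFP-hi and GFP-lo below), with 3 libraries each. The labels give neither the age of the mice nor whether the 3 samples of a population came from separate animals, so p-values measure only the spread between these samples, which may be technical. The sort therefore reads the activity of that transgene, in cells listed under a single transgenic receptor.

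Cyclic AMP is made from ATP by adenylyl cyclases, which are switched on by receptors coupled to the stimulatory G protein. It binds the regulatory subunits of protein kinase A (PKA) and releases the catalytic subunits, and in T cells PKA restrains signalling close to the T-cell receptor through the kinase Csk. Phosphodiesterases break cyclic nucleotides down and so set how long and where in the cell the signal lasts. Some, such as the products of Pde2a and Pde3b, cleave both cyclic AMP and cyclic GMP, whereas the Pde4 and Pde7 families are specific for cyclic AMP.

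Values are RPKM, read numbers divided by gene length and by library size, and a fold change is the log2 ratio of GFP-hi over GFP-lo on the scale of log2(RPKM + 1). The depth recovered from the size of 1 read in low values was 26171368 to 35939730 reads per library. Pde4d, the least abundant of the 9 genes, rested on 65.0 to 98.5 reads per kilobase and Prkar1a, the most abundant, on 3861 to 5620. Reads without molecular identifiers may be PCR copies, so these depths bound counting error only. The 5 listed CD8 T-cell genes summed to between 1398 and 1531 RPKM in a library, led by Cd8b1, and Cd4 was not listed. Neither Nr4a1 (log2 fold change 0.02, standard error 0.38, limma adjusted p = 0.98) nor the GFP entry (0.15, standard error 0.092, limma adjusted p = 0.42) passed the test, so these transcripts gave no check of the sort labels. Leaving out GFP-hi replicate 2 took the GFP value to 0.05, and leaving out GFP-lo replicate 3 took it to 0.09. Leaving out any other library gave 0.18 to 0.20. GFP-hi replicate 2 and GFP-lo replicate 2 stood apart by the heat-shock gene Hspa1a, at 1100 and 1234 RPKM against 152 to 235 RPKM in the other libraries.

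The 9 genes spanned a wide range of levels per length. In GFP-lo cells the order of mean RPKM was Prkar1a (149.5), Adcy7 (85.1), Pde3b (59.1), Pde2a (41.7), Prkacb (33.2), Pde4b (19.8), Prkaca (19.0), Pde7a (15.7) and Pde4d (2.54). Neighbours in this order did not overlap between libraries, except Pde4b and Prkaca. In GFP-hi cells Pde2a came after both catalytic subunits of PKA, at a mean of 20.5 RPKM, and its libraries overlapped those of Prkaca (22.4) and Pde4b (18.5). The other genes kept their order, apart from Prkaca, which stood above Pde4b in GFP-hi and overlapped it in GFP-lo cells.

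**Figure D1:**
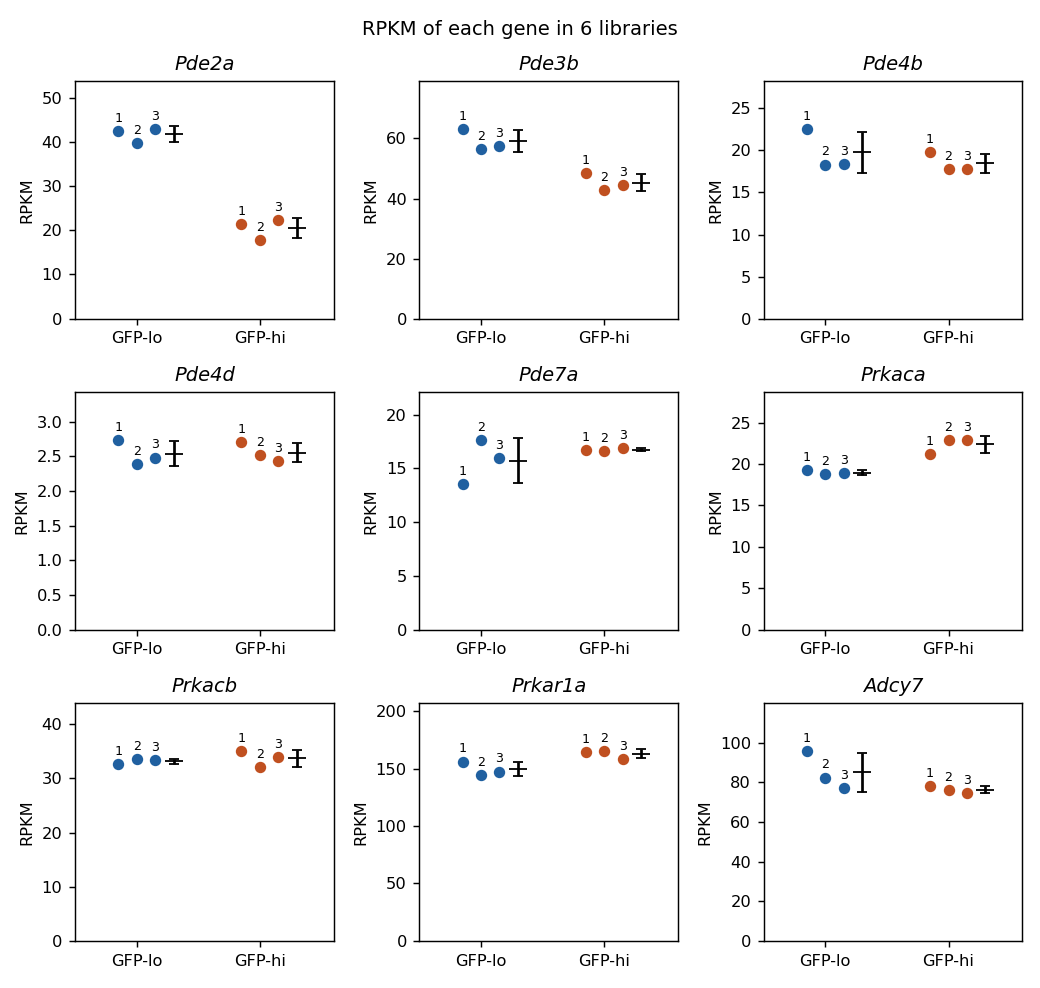
RPKM of 9 genes in 3 GFP-lo (blue) and 3 GFP-hi (orange) libraries, with the replicate number above each point and the mean ± SD beside it. The libraries of Pde2a lie between 17.8 and 22.3 RPKM in GFP-hi and between 39.7 and 43.0 RPKM in GFP-lo, whereas those of Pde4b, Pde4d, Pde7a, Prkacb and Adcy7 overlap.

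Pde2a and Pde3b were both lower in GFP-hi cells. Pde2a encodes an enzyme that cyclic GMP stimulates to cleave cyclic AMP. It had 21.4, 17.8 and 22.3 RPKM in the GFP-hi libraries and 42.5, 39.7 and 43.0 RPKM in the GFP-lo libraries. Every GFP-hi library thus lay well below every GFP-lo library. Mean levels were 20.5 ± 2.36 for GFP-hi against 41.7 ± 1.77 RPKM for GFP-lo (SD, n = 3 each), 2.03-fold lower in GFP-hi, and the log2 fold change was -0.99 (standard error 0.085, 95% interval from -1.19 to -0.80). Of 9351 genes tested, 7 including Pde2a had a log2 fold change at least as far below 0. This scale understates the change of low genes, so some genes outside the 7 may fall by more in RPKM. In bulk RNA, fewer cells that express a gene and less of its RNA in each cell cannot be told apart.

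Pde3b encodes a phosphodiesterase that cyclic GMP inhibits, best known for lowering cyclic AMP in fat and liver cells after insulin. It was the most abundant of the phosphodiesterase genes measured here, with 48.6, 42.9 and 44.4 RPKM in GFP-hi and 63.3, 56.6 and 57.5 RPKM in GFP-lo libraries. The groups did not overlap, but the gap between them was smaller than for Pde2a. Mean levels were 45.3 ± 2.92 against 59.1 ± 3.62 RPKM (SD, n = 3 each), 1.31-fold lower in GFP-hi, with a log2 fold change of -0.38 (standard error 0.068, 95% interval from -0.53 to -0.22).

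Pde4b, Pde4d and Pde7a, specific for cyclic AMP, overlapped between the populations. Pde4b, which encodes the enzyme that is recruited to the T-cell receptor complex on costimulation, had 19.8, 17.8 and 17.8 RPKM in GFP-hi and 22.6, 18.3 and 18.4 RPKM in GFP-lo libraries. Only GFP-lo replicate 1 stood above the GFP-hi range. The log2 fold change was -0.09 (95% interval from -0.29 to 0.12), and it was 0.0079 without GFP-lo replicate 1. Pde4d, a relative of Pde4b, had 2.71, 2.52 and 2.44 RPKM in GFP-hi and 2.74, 2.39 and 2.48 RPKM in GFP-lo libraries. These ranges were nearly the same, with a log2 fold change of 0.01 (95% interval from -0.16 to 0.17). Pde7a, which encodes a cyclic AMP phosphodiesterase abundant in lymphocytes, had 16.7, 16.7 and 16.9 RPKM in GFP-hi and 13.6, 17.7 and 15.9 RPKM in GFP-lo libraries. The GFP-hi libraries lay within the spread of the GFP-lo libraries, whose SD of 2.07 RPKM was much wider than the 0.116 RPKM of GFP-hi. The log2 fold change of 0.09 (95% interval from -0.11 to 0.30) was -0.0031 without GFP-lo replicate 1.

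Together the 5 phosphodiesterase genes summed to 109, 97.8 and 104 RPKM in GFP-hi and to 145, 135 and 137 RPKM in GFP-lo libraries, or 103.6 ± 5.71 and 138.9 ± 5.13 RPKM (SD, n = 3 each). Pde4b, Pde4d and Pde7a summed to 37.8 ± 1.22 RPKM in bright and 38.0 ± 1.09 RPKM in dim cells, so the gap in the total lay in Pde2a and Pde3b. Pde2a made up 19.8% ± 1.61 of the sum in GFP-hi and 30.1% ± 1.12 in GFP-lo cells, whereas Pde3b made up 43.7% ± 0.859 and 42.6% ± 1.05. Pde3b exceeded Pde2a by 2.22 ± 0.209 times in GFP-hi and by 1.42 ± 0.078 times in GFP-lo cells, without overlap between the groups. These sums are of transcript levels per length, not of enzyme activity.

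**Figure D2:**
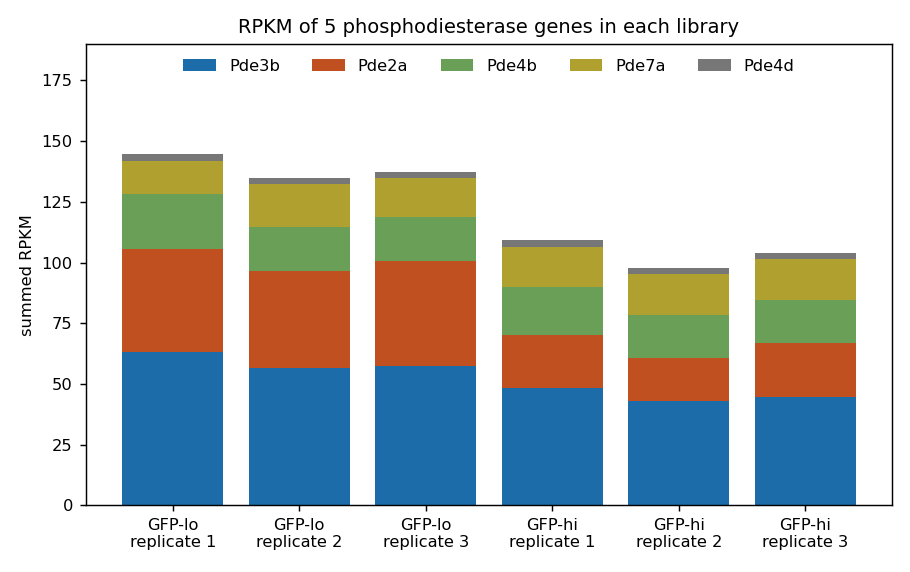
Summed RPKM of 5 phosphodiesterase genes in each library, stacked by gene on an axis that starts at 0. The GFP-lo bars reach 135 to 145 RPKM and the GFP-hi bars 97.8 to 109 RPKM, and the Pde2a segment differs most between the populations.

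Of the 3 PKA genes among the 9, Prkaca and Prkar1a did not overlap between the populations and Prkacb did. Prkaca, which encodes a catalytic subunit, had 21.2, 22.9 and 22.9 RPKM in GFP-hi and 19.3, 18.8 and 18.9 RPKM in GFP-lo libraries. All GFP-hi libraries lay above all GFP-lo libraries, with means of 22.4 ± 0.975 and 19.0 ± 0.288 RPKM (SD, n = 3 each), and the log2 fold change was 0.23 (standard error 0.054, 95% interval from 0.10 to 0.35). Prkacb, which encodes a second catalytic subunit, had 35.1, 32.0 and 34.0 RPKM in GFP-hi and 32.7, 33.5 and 33.4 RPKM in GFP-lo libraries. The groups overlapped and the log2 fold change was 0.02 (95% interval from -0.10 to 0.14). Prkaca thus supplied 39.9% ± 2.03 of the summed catalytic transcript in GFP-hi and 36.4% ± 0.666 in GFP-lo cells (SD, n = 3 each). The summed level was 56.1 ± 1.00 against 52.2 ± 0.165 RPKM.

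Prkar1a, which encodes the type I alpha regulatory subunit that holds the catalytic subunits inactive, had 164.7, 165.5 and 158.3 RPKM in GFP-hi and 156.2, 144.8 and 147.5 RPKM in GFP-lo libraries. The groups were separate by a narrow margin, GFP-hi replicate 3 lying just above GFP-lo replicate 1. Mean levels were 162.9 ± 3.94 against 149.5 ± 5.98 RPKM (SD, n = 3 each), with a log2 fold change of 0.12 (standard error 0.054, 95% interval from -0.0017 to 0.25). The ratio of Prkar1a to the summed catalytic transcripts was 2.91 ± 0.116 in GFP-hi and 2.87 ± 0.124 in GFP-lo cells, and the groups overlapped.

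Adcy7 encodes an adenylyl cyclase found in blood cells and was the main cyclase measured here, with 83.0% ± 2.29 of the summed RPKM of the 6 listed adenylyl cyclase genes in GFP-hi and 84.6% ± 1.62 in GFP-lo cells. It had 78.0, 76.2 and 74.7 RPKM in GFP-hi and 95.9, 82.4 and 76.9 RPKM in GFP-lo libraries. GFP-lo replicate 1 was the highest and GFP-lo replicate 3 lay within the GFP-hi range. The log2 fold change was -0.15 (95% interval from -0.34 to 0.038), and it was -0.06 without GFP-lo replicate 1.

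In the limma fit over all 9351 genes tested, with a Benjamini-Hochberg adjusted p under 0.05 as the threshold, 2 of the 9 genes were called lower in GFP-hi, Pde2a and Pde3b, and 0 were called higher. Over all genes tested 1.49% were called lower and 2.46% higher. The groups did not overlap for 4 of the 9 genes, against 26.9% of all genes tested. Since the genes were chosen with this comparison known, nothing is read from these counts. The median log2 fold change of the 9 genes was 0.0072, beside 0.02 over all genes tested. Pde2a was called in all 19 alternative fits, with log2 fold changes from -1.06 to -0.89. Pde3b was called in 14 of 19, with values from -0.43 to -0.33, and lost its call when GFP-hi replicate 3 (-0.37) or any 1 of the GFP-lo libraries (-0.33, -0.41 and -0.40) was left out and in the 4 libraries with lower heat-shock genes (-0.37). Prkaca, not called in the reported fit, was called higher in 3 of 19, with the length and GC trend removed (0.20), with array quality weights (0.25) and with a covariate for dissociation and heat-shock genes (0.23).

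**Figure D3:**
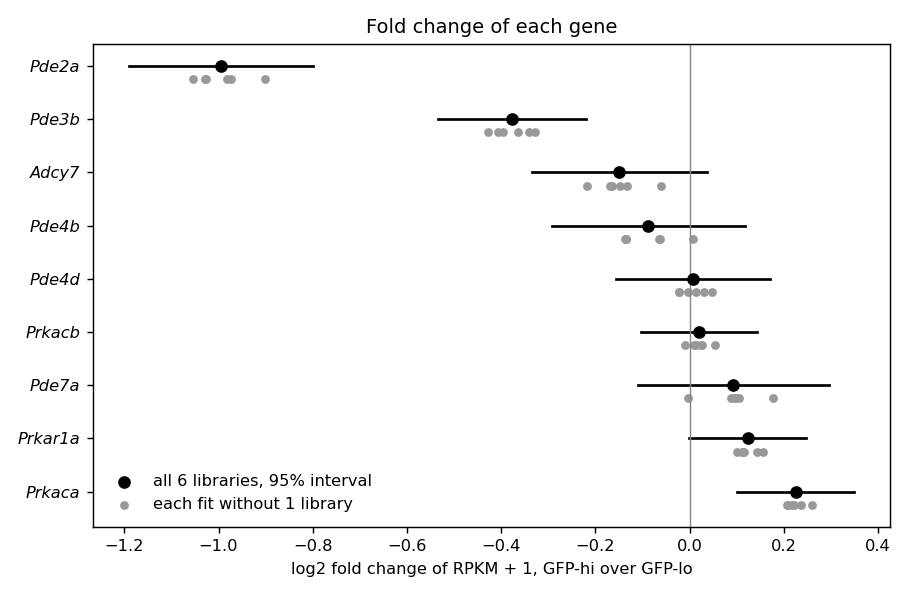
Log2 fold change of RPKM + 1, GFP-hi over GFP-lo, for 9 genes, from all 6 libraries with the 95% interval (black) and from each of 6 fits without 1 library (grey). Pde2a at -0.99 and Pde3b at -0.38 lie below 0 with all grey points, and Prkaca at 0.23 lies above 0 with all grey points. The grey points of Prkar1a (0.10 to 0.15) and Adcy7 (-0.22 to -0.06) also keep their sign, but the intervals of these genes include 0.

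Genome context was added for the 4 genes whose groups did not overlap, of which only Pde2a and Pde3b were called. On GRCm38.p6, the assembly that mm10 names, Pde2a spans chr7:101421691-101512829 and Pde3b chr7:114415222-114537938. Prkaca lies at chr8:83972978-83996444 and Prkar1a at chr11:109649023-109669663. RefSeq promoter windows of 250 bases before to 50 after a transcript start were found for 8 of the 10 named genes, 27 windows in all, and Pde3b and Pde7a had none. They were searched on both strands for the cyclic AMP response element TGACGTCA, the site bound by CREB, a transcription factor that PKA phosphorylates, and for its half-site TGACG, which lies inside the full element. The half-site occurred in 9 of the 27 windows, and in 20.8% of 32851 windows of all genes. The full element occurred in 2 of the 27, both Prkar1a windows, and in 1.79% of all windows. Those 2 windows overlap and hold the same element and the same half-sites, so both member counts include that stretch more than once. Which start is used in these cells was not measured by a table of gene totals, and a match of letters is no evidence of binding.

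4 windows are shown to compare the genes, each on the plus strand from 250 bases before to 30 after a start, with matches to the half-site or full element in capitals. They are the first and the only matching window of Pde2a, the gene with the widest gap, the matching window of Pde4b, whose levels overlapped, and the Prkar1a window with the full element.
Pde2a, chr7:101421441-101421720: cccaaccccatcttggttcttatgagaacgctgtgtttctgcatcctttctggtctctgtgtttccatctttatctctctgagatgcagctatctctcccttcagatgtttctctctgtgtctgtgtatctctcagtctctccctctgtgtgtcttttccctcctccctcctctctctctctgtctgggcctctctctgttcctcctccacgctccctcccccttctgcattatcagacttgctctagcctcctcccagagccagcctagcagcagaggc
Pde2a, chr7:101450270-101450549: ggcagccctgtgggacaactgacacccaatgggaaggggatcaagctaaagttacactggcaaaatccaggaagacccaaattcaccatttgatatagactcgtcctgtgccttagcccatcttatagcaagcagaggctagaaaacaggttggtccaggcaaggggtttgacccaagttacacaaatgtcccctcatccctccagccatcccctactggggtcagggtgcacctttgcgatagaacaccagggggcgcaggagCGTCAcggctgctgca
Pde4b, chr4:102421305-102421584: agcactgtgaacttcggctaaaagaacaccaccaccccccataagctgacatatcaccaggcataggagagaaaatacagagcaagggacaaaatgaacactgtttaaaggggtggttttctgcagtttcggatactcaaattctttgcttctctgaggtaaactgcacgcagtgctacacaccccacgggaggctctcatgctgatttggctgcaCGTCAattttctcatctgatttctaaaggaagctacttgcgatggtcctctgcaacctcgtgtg
Prkar1a, chr11:109650699-109650978: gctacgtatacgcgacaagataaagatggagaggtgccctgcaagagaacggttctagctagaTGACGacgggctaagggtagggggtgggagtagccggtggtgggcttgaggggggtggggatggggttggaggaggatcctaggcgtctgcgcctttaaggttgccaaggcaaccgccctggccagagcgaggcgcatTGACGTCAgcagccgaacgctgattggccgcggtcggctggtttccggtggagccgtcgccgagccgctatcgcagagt
The Pde2a window at its first start holds no match, and in the second its half-site begins 14 bases after the start. In the Pde4b window the half-site begins 34 bases before the start. The full element of Prkar1a begins 49 bases before the start and a further half-site 187 bases before it.

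The rest of the pathway was described with 97 further genes, of which 66 had an entry and 48 passed the minimum mean of 1 RPKM. Of these 48 genes, 1 was called lower, 0 were called higher, and 17 had a positive and 31 a negative log2 fold change. Over all 9351 genes tested, 1.49% were called lower and 2.46% higher, and 5187 had a positive log2 fold change. The median was -0.07, beside 0.02 over all genes tested. The called gene was Vipr1, which encodes a receptor for vasoactive intestinal peptide that raises cyclic AMP. Vipr1 had 18.5, 17.7 and 20.1 RPKM in GFP-hi and 27.0, 24.9 and 25.8 RPKM in GFP-lo libraries. Each GFP-hi library lay below each GFP-lo library, and the log2 fold change, -0.44 with a standard error of 0.064, passed the test (limma adjusted p = 0.0098). That adjusted p ran from 0.0033 to 0.056 over the alternatives, and the call was lost, at -0.43, in the 4 libraries with lower heat-shock genes.

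Of 10 G-protein alpha subunits and receptors tested, Vipr1 was the only one called. Ptger2, which encodes a prostaglandin E2 receptor that also raises cyclic AMP, had 1.98, 2.22 and 1.72 RPKM in GFP-hi and 1.42, 0.898 and 0.581 RPKM in GFP-lo libraries. The groups did not overlap, but at a log2 fold change of 0.62 the gene did not pass the threshold (standard error 0.15, limma adjusted p = 0.066). Among 6 fits without 1 library, Ptger2 was called only without GFP-lo replicate 1, at 0.78, and the lowest value was 0.47. Of the 3 other phosphodiesterases tested none was called, and Pde6d was the most abundant at 6.59 RPKM over all libraries. Neither of the 2 other cyclases tested was called. Adcy6 had 3.68, 1.90 and 2.97 RPKM in GFP-hi and 1.92, 1.48 and 1.77 RPKM in GFP-lo libraries, and its log2 fold change of 0.47 did not pass the test (limma adjusted p = 0.16, standard error 0.16). GFP-hi replicate 2 lay within the GFP-lo range, and without it the value was 0.66 and the gene was called. That was the only call among 6 fits without 1 library, whose lowest value was 0.32. Adcy3 was the more abundant, at 12.5 RPKM.

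Of 2 further kinases and regulatory subunits tested, neither was called. Prkar2a, which encodes a type II regulatory subunit that binds anchoring proteins, had 5.46, 4.22 and 5.38 RPKM in GFP-hi and 6.93, 6.90 and 8.78 RPKM in GFP-lo libraries. The groups did not overlap, but the log2 fold change of -0.50 did not pass the threshold (limma adjusted p = 0.052, standard error 0.11) and did so in 4 of 19 alternatives. The ratio of Prkar1a to Prkar2a was 32.9 ± 5.43 in GFP-hi and 20.1 ± 2.97 in GFP-lo cells (SD, n = 3 each), and Prkar1a made up 96.3% ± 0.488 and 94.6% ± 0.808 of the summed regulatory subunits. Prkx, a kinase close to the PKA catalytic subunits, had a mean of 14.0 RPKM. Ptger2, Adcy6 and Prkar2a were picked out after their values were seen.

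None of 9 anchoring proteins tested was called (median log2 fold change -0.06, 7 of 9 negative), the most abundant being Ezr, which encodes ezrin, at 190.2 RPKM. None of 16 effectors and PKA substrates was called (median -0.06), and Rap1b, a small GTPase downstream of cyclic AMP, led by level at 196.9 RPKM. Of 7 genes induced through CREB that were tested none was called (median -0.15, 6 of 7 negative). Fos was the most abundant of them at 611 RPKM. Of the 11 genes named as CREB targets, 3 were shared with a list of genes induced by tissue dissociation and heat shock. These 3, Fos (log2 fold change -0.18), Fosb (-0.36) and Dusp1 (-0.23), were all among the 7 tested. On the dissociation and heat-shock list 18 of 22 genes tested had a negative log2 fold change, 1 of them called lower. The summed level of the list ran from 3664 to 7912 RPKM in the bright and from 4742 to 8889 RPKM in the dim libraries. The part of this list in the CREB target values was not tested. With the list's mean as a covariate, Pde2a had a log2 fold change of -1.05 and Pde3b of -0.41.

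**Figure D4:**
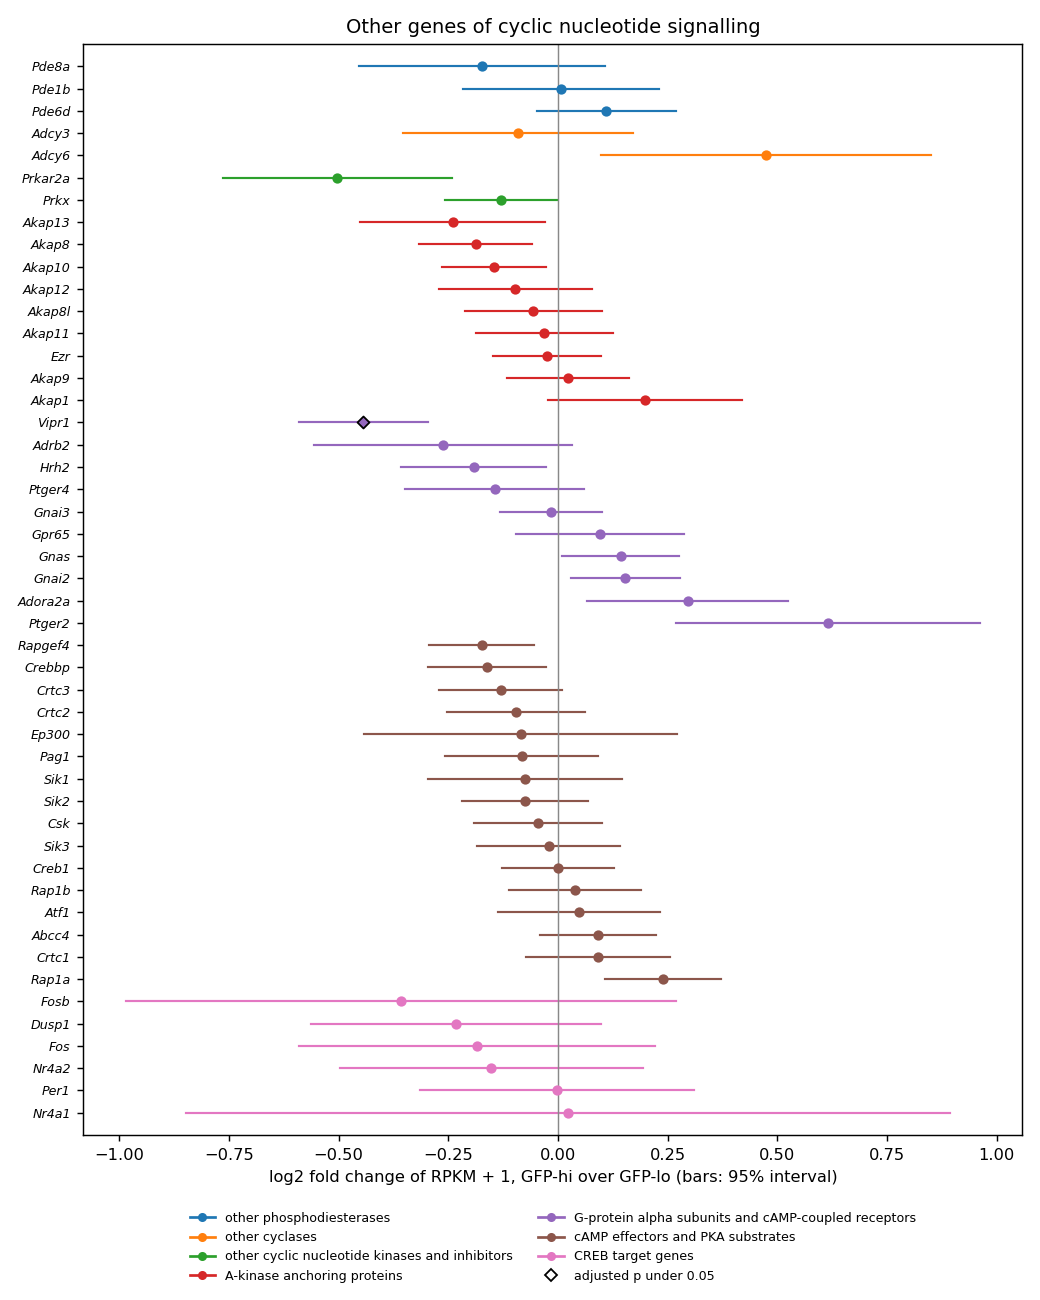
Log2 fold change of RPKM + 1, GFP-hi over GFP-lo, with 95% intervals for 48 further genes of cyclic nucleotide signalling, coloured by list, with a diamond where the limma adjusted p was under 0.05. The 1 diamond is Vipr1 at -0.44, and of all 48 genes 17 lie above and 31 below 0.

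Few markers of other cell types had an entry. Of 5 B-cell genes 2 were listed, led by Cd79b, and summed to 12.5 to 14.2 RPKM in GFP-hi and 10.9 to 11.3 in GFP-lo libraries. Of 6 myeloid genes 2 were listed, led by Cst3, at 18.8 to 24.6 and 18.8 to 21.0 RPKM, and of 3 endothelial genes 2, led by Pecam1, at 29.3 to 30.5 and 27.8 to 32.6 RPKM. Of 5 platelet and erythroid genes 1 was listed, Hba-a1, at no more than 1.94 RPKM, and 0 of 3 NK-cell genes had an entry. Of 3 CD4 T-cell genes 1 was listed, Izumo1r, whereas Cd4 and Foxp3 had no entry. Izumo1r had 2.999 to 3.715 RPKM in GFP-hi and 0.822 to 1.12 RPKM in GFP-lo libraries. It was called higher (log2 fold change 1.17, limma adjusted p = 0.00087). The part of any such cells in the values of Pde2a and Pde3b was not tested.

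The 5 genes whose profile over the 6 libraries was most like that of Pde2a were found by the root mean square difference between profiles of log2(RPKM + 1), each centred on its own mean. They were Ust (0.046), a sulfotransferase gene, Pou6f1 (0.099), which encodes a transcription factor, Nacc2 (0.11), F2rl1 (0.11), which encodes a protease-activated receptor, and Ass1 (0.14), which encodes argininosuccinate synthase. Ust had 2.80, 2.04 and 2.72 RPKM in GFP-hi and 5.75, 5.93 and 6.11 RPKM in GFP-lo libraries. Like Pde2a it was lowest in GFP-hi replicate 2, and its log2 fold change was -0.98. A gene with the same gap between the populations ranks high by this measure over 6 libraries.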

How the data were processed

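RNA of 3 GFP-hi and 3 GFP-lo samples was measured by sequencing of polyA RNA, with SMART-seq v4 cDNA and Nextera XT libraries per the labels' protocols. The values deposited by the authors are RPKM per the file headers, 1 column per sample. STAR and mm10 are named in the submitters' processing notes. The read counter, the annotation and how entries were selected are not given in the sources used here. Titles tied each of the 6 columns to its sample.

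Entries averaging 1 RPKM or more (9351 of 11162) were fitted with limma 3.58.1 (R 4.3.3) on log2(RPKM + 1), with a mean-variance trend, no covariate, two-sided tests and p-values adjusted by Benjamini-Hochberg across the fitted genes, and called at an adjusted p under 0.05. The fit was also run on simulated data with independent noise for each gene. Those data lack the differences between whole libraries seen here, so nothing about the calls is read from that run. This scale understates the change of low genes. Depth was recovered by multiplying low RPKM values of genes with 1 GENCODE M21 transcript by its length and seeking the library size that gave whole reads, and 92.7% to 94.6% of those values then lay within 0.1 of a whole read. Because RPKM needs a gene length that is not stated for genes with several transcripts, no count test was run.

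The genes, the pathway and marker lists and the tests were chosen with earlier results of these data known. Named were all listed genes, the called or else most abundant genes of each pathway list, the most abundant marker of each cell-type list, the 5 genes most like Pde2a, and Nr4a1, GFP and Hspa1a as checks. Ptger2, Adcy6, Prkar2a and, in the closing section, Adcy8 fall outside this rule. Alternatives changed the pseudocount, filter, scaling, variance model, trends with length and GC content, the heat-shock level of libraries and the samples. Gene positions and promoter windows are from RefSeq on GRCm38.p6. Python 3.11.15 and matplotlib 3.10.9 made the figures.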

Additional observations from a re-analysis of the deposited data

How the results depend on the processing

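Of 19 alternative fits, 1 gene of the 9 was called higher (Prkaca) with the length and GC trend removed, with array quality weights and with the dissociation and heat-shock covariate, against 0 in the reported fit. The number called lower was 1 in place of 2 in the 4 libraries with lower heat-shock genes, and from 1 to 2 when 1 library was left out. Pathway genes called higher numbered 1 with the length and GC trend removed, 5 with array quality weights and 1 with the covariate, and from 0 to 1 when 1 library was left out. Those called lower numbered 5 with the trend removed, 2 with robust eBayes, 6 with array quality weights, 0 in the 4 libraries and 4 with the covariate, and 1 in each fit without 1 library. Signs turned for 4 of the 9 genes and for Nr4a1. Leaving out 1 library gave log2 fold changes from -0.136 to 0.0079 for Pde4b, from -0.0031 to 0.177 for Pde7a, from -0.0235 to 0.0482 for Pde4d, from -0.0090 to 0.0549 for Prkacb and from -0.340 to 0.336 for Nr4a1. Pde4d was also -0.0081 with quantile normalization, -0.0131 with trimmed mean of M values, -0.0166 in the 4 libraries and -0.0094 with the covariate. Prkacb was -0.0196 and Nr4a1 -0.0042 with quantile normalization, and -0.0077 and -0.0046 with trimmed mean of M values. With array quality weights Nr4a1 was -0.42, and it was -0.0138 when 4 libraries were used. The cause was not tested. Over all genes 230 were called higher and 139 lower, and 199 and 183 with trimmed mean of M values. These counts were 783 and 499 with array quality weights, 554 and 268 with the covariate, 330 and 297 with the length and GC trend removed, 119 and 83 at a minimum mean of 5 RPKM and 52 and 49 in the 4 libraries. They ran from 71 to 187 higher and from 59 to 128 lower when 1 library was left out. No paired analysis was made because the labels carry no replicate numbers, and the numbers used here only name the libraries in the order of the records. Nr4a1 had 56.6, 90.9 and 37.0 RPKM in GFP-hi and 63.1, 84.9 and 33.8 RPKM in GFP-lo replicates 1 to 3. Whether like-numbered libraries share a source is not given by the labels and was not tested.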

Other observations

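Of the 18 pathway genes listed below the minimum mean of 1 RPKM, 12 had their lowest values in both GFP-hi replicate 2 and GFP-lo replicate 1, below all other libraries, as had 53.0% of the 1811 listed genes under that minimum. Their median was 0.098 and 0.0995 RPKM in those libraries and 0.221 to 0.42 RPKM in the other libraries. Adcy8, a cyclase gene best known from brain, had 0.059 and 0.032 RPKM there and 0.441 to 0.859 RPKM elsewhere. This division and Adcy8 were chosen after the values were seen. None of the 9 genes of the report lies in this range of levels.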
